A study of Mus musculus with 2 samples.

Results

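The genes described here are 10 regulators of the step from G1 into S phase: the D-type cyclins Ccnd1, Ccnd2 and Ccnd3, their kinases Cdk4 and Cdk6, the E-type cyclins Ccne1 and Ccne2, and the transcription factors Myc, Mycn and E2f1. They were chosen by name, as all biological probes that carry one of these names on the array. This gave 15 probes for the 10 genes, of 39429 probes and 29875 genes in all, and 10 of the 10 genes were measured well enough to be tested, as were 21574 genes of the whole array. The RNA came from ureters of E12.5 embryos of the NMRI mouse strain (wildtype, sex not determined) that had been explanted onto transwell membranes and kept for 18 h in serum-free medium. BIO explants received 10 µM BIO (6-bromoindirubin-3-oxime), an inhibitor of the kinase GSK3 used to activate canonical WNT signaling, and control explants received the solvent DMSO at 2:1000. Each of 2 Agilent 2-color arrays carried the control RNA of a pool of ureters in one channel and the BIO RNA of another pool in the other, with BIO in red in replicate 1 and in green in replicate 2. A whole explant was measured, so that a change in the number of cells of one type and a change in RNA per cell cannot be told apart.

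In the cell cycle, D-type cyclins bind CDK4 and CDK6 in G1 and phosphorylate the retinoblastoma protein, which then releases E2F factors. E2F factors activate the E-type cyclins and the genes of DNA replication, and cyclin E with CDK2 drives entry into S phase. MYC proteins bind E-box sequences and promote growth and cell cycle entry, GSK3 phosphorylates MYC and cyclin D1 and marks them for degradation, and Ccnd1 and Myc are widely known as transcriptional targets of canonical WNT signaling in colon carcinoma cells. Protein was not measured here, so none of the values below bears on protein stability.

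The array probes of the 4 genes that passed the test are shown first, because they define which stretch of RNA was measured. Positions are those of the array files, on mm9 (NCBI37), and the letters are the first 30 of the 60 bases of each probe, 5′ to 3′. Which exon or transcript end they match was not analysed here. The Myc probe lies at chr15:61821417-61821476 on the + strand, the Mycn probe at chr12:12943193-12943252 on the − strand, the E2f1 probe at chr2:154385798-154385857 on the − strand and the Ccne2 probe at chr4:11131423-11131482 on the + strand.
Myc probe: aacagttgaaacacaaactcgaacagcttc
Mycn probe: tgtactaattcctacacggcctgtatactt
E2f1 probe: gcctggctgggtttgcagggcagcaagagc
Ccne2 probe: ttataaactattgttaagatatgaagtttt
The Ccne2 probe is poor in G and C, with a GC content of 15% against a median of 41.7% over all probes, and 0% of the probes were lower. The GC content was 41.7% for the Myc probe, 35% for the Mycn probe and 51.7% for the E2f1 probe.

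With BIO, Myc and Mycn fell, E2f1 and Ccne2 rose, and the D-type cyclins and their kinases did not pass the test. Values below are log2 ratios of BIO over control from the mean spot intensities, positive where BIO was higher, and a gene rose or fell when its Benjamini-Hochberg adjusted p in limma, taken over all 28824 probes tested, was under 0.05. Of the 10 genes, 2 rose, 2 fell and 6 did not pass. That is 20% in each direction, beside 9.13% of all genes tested that rose and 14.8% that fell, and with so few genes these shares say nothing particular about the group. The median log2 ratio of the 10 genes was −0.23 (−0.16 on replicate 1 and −0.24 on replicate 2), and that of all genes tested was −0.01. Across all genes tested, 1970 rose and 3184 fell, while the authors' rounded value table put through the same test gave 1929 and 1319. The study's other arrays were read by a rule on size alone, a signal of at least 100 and a change of at least 2-fold on both arrays, taken here as 100 in the brighter channel and one direction on both. By that rule 0 of the 10 genes were higher with BIO and 0 were lower, against 1.04% and 2.04% of all genes tested. In the limma fit 6 of the 10 genes had an unadjusted p under 0.05. The share of all genes under that limit was not computed, so this count says nothing particular about the group.

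**Figure D1:**
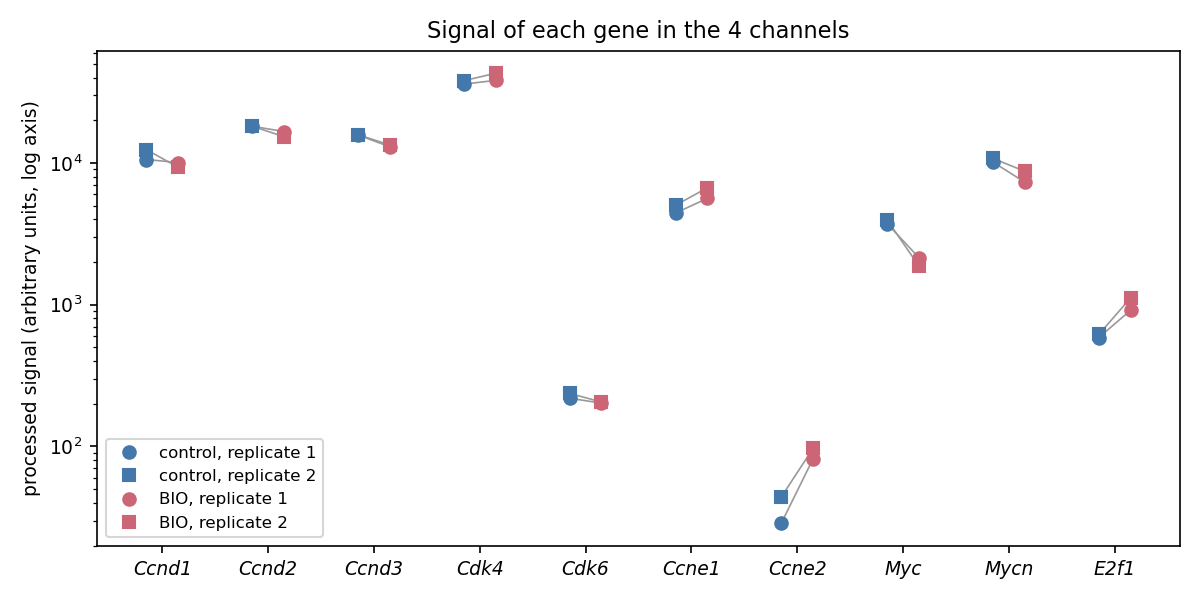
Processed signal (arbitrary units, log axis) of the brightest probe of each of the 10 genes in the control and BIO channels of replicate 1 (circles) and replicate 2 (squares), with lines joining the channels of one array. Myc and Mycn sit lower with BIO on both arrays, E2f1, Ccne1 and Ccne2 sit higher, and heights of different genes cannot be compared.

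Myc, a transcription factor of growth and cell cycle entry, had the lowest ratio of the 10 genes on both arrays. Its processed signal, the background-subtracted and dye-normalized brightness, was 3730 in control and 2149 in BIO explants of replicate 1, and 3969 and 1874 in those of replicate 2. Both BIO channels were lower than both control channels, and the control channels differed little from each other. The brightest probe of every gene described here had its control and BIO channels apart, also where the gene did not pass. The share of all genes with such a gap was not computed, so the gap singles out no gene. The log2 ratios were −0.83 and −1.06, with a mean of −0.95 ± 0.11 (SE, n = 2; 95% interval −1.21 to −0.68) and an adjusted p of 0.000872. This is a level 1.93-fold lower with BIO. From the authors' rounded values the mean was −0.96 with an adjusted p of 0.126, the only one of 6 other ways of processing in which Myc did not pass. Of the genes tested, 3.04% lay lower in the order of log2 ratios.

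Mycn, the paralog of Myc that is used in many embryonic tissues, fell less. Its signal went from 10151 to 7319 in replicate 1 and from 10757 to 8744 in replicate 2. The channels did not overlap between conditions, as for every gene described here, also those that did not pass. The log2 ratios were −0.54 and −0.28, with a mean of −0.41 ± 0.12 (SE, n = 2), a level 1.33-fold lower, and the adjusted p in limma was 0.0375. This call was lost in 5 of the 6 other ways of processing, with adjusted p between 0.0504 and 0.339. The difference between Myc and Mycn was −0.29 on replicate 1 and −0.78 on replicate 2, Myc being lower on both. Their 95% intervals met without overlap (upper end −0.682 for Myc, lower end −0.679 for Mycn), and they overlapped from the rounded values, under median centering, with an offset of 16 and from the processed signals. The difference itself was not tested.

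E2f1, the activator E2F that is held by the retinoblastoma protein in G1, rose. Its signal was 586 in control and 914 in BIO explants of replicate 1, and 617 and 1115 in those of replicate 2. Both BIO channels were brighter than both control channels, a separation that every gene described here had in its own direction. The log2 ratios of 0.54 and 0.80 gave a mean of 0.67 ± 0.12 (SE, n = 2; 95% interval 0.40 to 0.94) and an adjusted p of 0.00492, a level 1.59-fold higher. With each array centered on its median in place of the intensity-dependent loess curve, the mean was 0.55 and the adjusted p 0.0735, and from the authors' rounded values they were 0.72 and 0.162.

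The E-type cyclins, partners of CDK2 at the entry into S phase, both had positive ratios on both arrays. Ccne2 rose, with log2 ratios of 0.90 and 0.78 and a mean of 0.84 ± 0.11 (SE, n = 2; 95% interval 0.58 to 1.09; adjusted p = 0.00124), the highest mean of the 10 genes. Its probe was dim, with signals of 28.8 in control and 81.8 in BIO explants of replicate 1 and of 44.1 and 97.0 in replicate 2. It was above background in all 4 channels, and both BIO signals stayed under the minimum of 100 of the rule on size. The size of the Ccne2 difference depended on how background was handled: from the processed signals the mean log2 ratio was 1.32, and with an offset of 16 in place of 50 it was 1.00. From the authors' rounded values it was 1.29 and did not pass (adjusted p = 0.126).

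Ccne1 was brighter, and its 2 probes fell on opposite sides of the threshold. The brighter probe, at chr7:38882937-38882960 on the − strand, had signals of 4430 and 5626 in control and BIO explants of replicate 1 and of 5032 and 6671 in those of replicate 2. Its log2 ratios of 0.29 and 0.42 gave a mean of 0.35 ± 0.11 (SE, n = 2) with an adjusted p of 0.0510, which did not pass. The file places only 24 bases of this probe in one block. The dimmer probe, at chr7:38885574-38885633, had log2 ratios of 0.35 and 0.50 and a mean of 0.43 with an adjusted p of 0.0271, which passed. On both arrays Ccne1 lay below Ccne2, by 0.61 and 0.36 log2 units, and their 95% intervals overlapped.

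**Figure D2:**
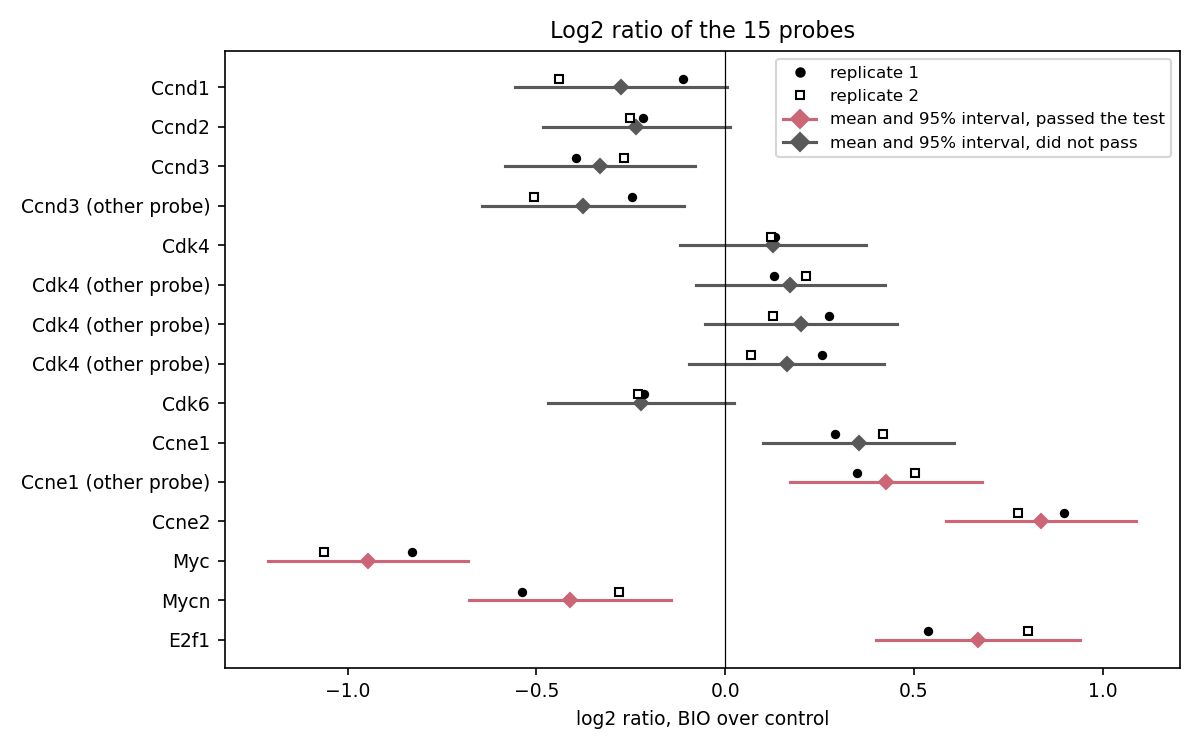
Log2 ratio of BIO over control for each of the 15 probes on replicate 1 (filled circles) and replicate 2 (open squares), with the mean and its 95% interval from limma, in red where the adjusted p was under 0.05. Every probe lies on the same side of 0 on both arrays, and the probes of Ccnd3, Cdk4 and Ccne1 lie close to the other probes of their gene.

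The D-type cyclins, which couple growth signals to CDK4 and CDK6, had negative ratios on both arrays in all 3 genes, and none passed the test. Ccnd1, probed at chr7:152116202-152116261 on the − strand, had signals of 10579 in control and 10065 in BIO explants of replicate 1 and of 12422 and 9327 in those of replicate 2. Control and BIO channels did not overlap, as for the other genes described here, but the arrays differed in size, with log2 ratios of −0.11 and −0.44. The mean was −0.28 ± 0.12 (SE, n = 2; 95% interval −0.56 to 0.00; adjusted p = 0.144). The upper end of that interval corresponds to 1.003-fold, so a Ccnd1 level raised by more than this lies outside the interval. Where arrays were centered on their median and no loess curve was used, the upper end was 0.22 on the log2 scale. It was 0.84 from the authors' rounded values, 0.14 from the processed signals and 0.04 with an offset of 16. With no filter on dim probes and with the mean of all probes it lay just below 0 (−0.001 and −0.010).

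Ccnd2 went from 18153 to 16669 in replicate 1 and from 18150 to 15337 in replicate 2. The control channels were nearly equal and the BIO channels lay below them, with log2 ratios of −0.22 and −0.25, a mean of −0.24 ± 0.11 and an adjusted p of 0.156. For Ccnd3 the brighter probe went from 15750 to 13010 and from 15824 to 13396. Its mean log2 ratio was −0.33 ± 0.11 with an adjusted p of 0.0629, and its second probe, which starts 5′ of it on chromosome 17, gave −0.38 with an adjusted p of 0.0506. Both Ccnd3 intervals, which are not adjusted for the number of probes, ended below 0, and with the mean of both probes taken for the gene, Ccnd3 passed (adjusted p = 0.0350). The differences between the D-type cyclins were at most 0.28 log2 units on an array. By the brightest probes, Ccnd1 was the least lowered of the 3 on replicate 1 and the most lowered on replicate 2. The second Ccnd3 probe was lower still on replicate 2, at −0.51 against −0.44 for Ccnd1. Ccnd3 lay below Ccnd2 on both arrays, by 0.18 and 0.02 with the brightest probes.

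The kinases of the D-type cyclins had ratios of opposite sign. Cdk4 had 4 probes on chromosome 10, and the brightest, at chr10:126504279-126504338 on the + strand, shares 53 bases with another. Its signals were 35981 and 38260 in replicate 1 and 38051 and 42949 in replicate 2, control before BIO. The log2 ratios were 0.13 and 0.12 with a mean of 0.13 ± 0.11 (SE, n = 2; 95% interval −0.12 to 0.37; adjusted p = 0.452), and the other 3 probes had means between 0.16 and 0.20, none of which passed. Cdk6 was read by 1 probe with signals of 219 and 202 in replicate 1 and 237 and 206 in replicate 2. Its mean log2 ratio was −0.22 ± 0.11 (SE, n = 2; 95% interval −0.47 to 0.02; adjusted p = 0.177). Cdk4 lay above Cdk6 by 0.35 log2 units on each of the 2 arrays, and their 95% intervals overlapped.

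Ordered by mean log2 ratio from the highest, the genes were Ccne2, E2f1, Ccne1, Cdk4, Cdk6, Ccnd2, Ccnd1, Ccnd3, Mycn and Myc. Each had a 95% interval that overlapped with that of the next gene in the order, except Mycn and Myc, whose intervals overlapped in 4 of the 6 other ways of processing. Ccne2 lay at the percentile of 98.3 of all genes tested, E2f1 at 97.1 and Ccne1 at 90.1, while Cdk4 was at 71.5, Cdk6 at 25.1, the D-type cyclins between 17.3 and 24.2, and Mycn at 13.3.

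**Figure D3:**
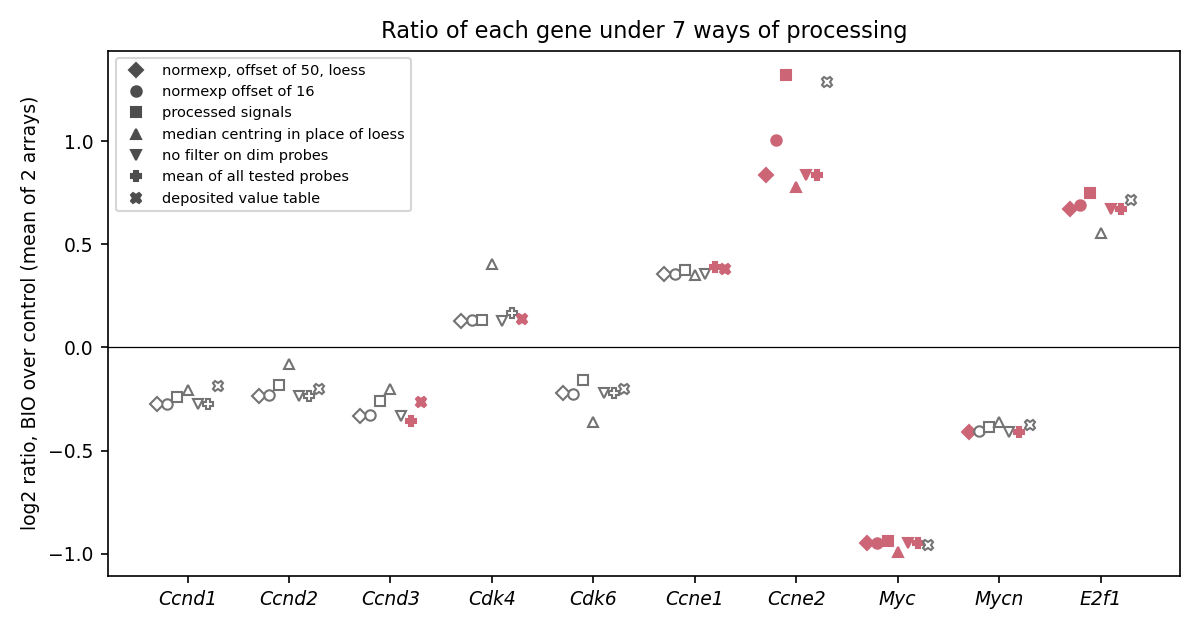
Mean log2 ratio of each of the 10 genes over the 2 arrays under 7 ways of processing the same scans, filled red where the adjusted p from limma was under 0.05 and open where it was not. The sign of each gene is the same throughout, while Mycn loses its call in 5 settings, E2f1 in 2, Ccne2 and Myc in 1 (the rounded value table), and Ccne2 moves between 0.78 and 1.32.

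Promoter windows from RefSeq (GRCm38.p6), from 250 bases before to 50 after a start site, were available here for 6 of the 10 genes, in 7 windows, and were searched on both strands for short sequences known to be bound by MYC, E2F and TCF factors. The E-box CACGTG, which MYC with MAX binds, occurs in 7.15% of the 32851 promoter windows of the genome, the E2F letters TTTGGCGC, TTTCCCGC, TTTCGCGC or TTTGCCGC in 2.26%, and the TCF letters CTTTGAT, bound by the partners of β-catenin, in 3.73%. The windows of Cdk4 and Mycn are printed because they hold more than 1 match, with the matches in capitals.
Cdk4 promoter, chr10:127063285-127063584, + strand: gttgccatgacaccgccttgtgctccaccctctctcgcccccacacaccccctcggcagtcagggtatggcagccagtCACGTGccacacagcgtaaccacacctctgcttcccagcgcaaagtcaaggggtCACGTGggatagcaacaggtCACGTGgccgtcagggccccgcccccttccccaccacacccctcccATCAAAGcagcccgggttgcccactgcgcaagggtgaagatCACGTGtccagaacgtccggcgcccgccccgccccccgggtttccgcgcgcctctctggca
Mycn promoter, chr12:12941787-12942086, − strand: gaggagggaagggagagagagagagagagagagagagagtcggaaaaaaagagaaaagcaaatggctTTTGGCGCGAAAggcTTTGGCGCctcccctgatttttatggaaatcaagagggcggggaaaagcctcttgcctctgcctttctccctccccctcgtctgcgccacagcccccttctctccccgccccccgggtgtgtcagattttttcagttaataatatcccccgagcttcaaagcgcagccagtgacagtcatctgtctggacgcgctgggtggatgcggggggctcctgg
The Cdk4 window holds 4 E-boxes, starting 172, 118, 98 and 11 bases before the start site, and 1 TCF match on the opposite strand. Windows with 4 or more E-boxes make up 0.0244% of the total. The Mycn window holds 3 E2F matches, starting 183, 179 and 168 bases before the start site, the 183 and 179 matches overlapping each other on opposite strands. Windows with 2 or more E2F matches make up 0.0974% of the total. The Cdk6 window holds 1 E-box, and the windows of Ccne1 and Ccnd3 hold none of these letters. The windows of Cdk6 and E2f1 and 1 of those of Ccnd3 lie wholly inside the RefSeq span of the gene, at internal start sites, and nothing is given for that of E2f1. A match of letters describes the window and is no binding site by itself, and binding was not measured here. Beside these matches, Cdk4 had a log2 ratio of 0.13 and did not pass, and Mycn fell by 0.41 on the log2 scale. Windows of Ccnd1, Ccnd2, Ccne2 and Myc were not analysed here.

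The genes that act directly on these 10 were described by lists chosen by function. Of 12 other E2F, DP and retinoblastoma family genes, 5 rose (41.7%) and 1 fell (8.33%), with a median log2 ratio of 0.29. Of all genes tested, 9.13% rose and 14.8% fell, and a list this small gives only rough shares. The repressor E2F genes E2f8 (1.14) and E2f7 (0.59) rose, as did the activators E2f2 (0.51) and E2f3 (0.48) and the pocket protein gene Rbl1 (0.45). A second probe of E2f7 gave 0.05, one of E2f3 gave 0.29 and one of Rbl1 gave 0.35, and none of these passed. Rb1, the retinoblastoma gene itself, fell by 0.67 on the log2 scale (ratios of −0.68 and −0.66; adjusted p = 0.00338). The DP genes Tfdp1 (0.33) and Tfdp2 (−0.13), the remaining pocket protein gene Rbl2 (−0.14) and E2f4, E2f5 and E2f6 (0.12 to 0.24) did not pass. A second, dimmer probe of Tfdp1 gave 0.40 and passed in limma (adjusted p = 0.0413).

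Of 6 CDK inhibitor genes tested, 3 rose and 0 fell, with a median of 0.44, beside 9.13% and 14.8% of all genes tested. Cdkn2b, whose product p15 blocks CDK4 and CDK6, had log2 ratios of 2.45 and 2.91 and a mean of 2.68 ± 0.13 (SE, n = 2; adjusted p = 3.18e-05), and its second probe gave 1.59. Cdkn1a, encoding the p21 inhibitor of CDK2, rose by 0.99 on its brightest probe, with 0.51 (passed) and 0.29 (did not pass) on the other probes. Cdkn2c, another inhibitor of CDK4 and CDK6, rose by 0.75. Cdkn1b (0.12), Cdkn2d (−0.06) and Cdkn1c (−0.26) did not pass, and Cdkn2a was not above background in either condition on both arrays.

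Among 9 further kinases, cyclins and activators of the G1 to S step, 4 rose (44.4%) and 0 fell, with a median of 0.28. Cks2, a small CDK-binding subunit, rose by 1.15, Fbxo5, an inhibitor of the anaphase-promoting complex, by 1.06, and Ccna2, the cyclin of S phase, by 0.94. Of 10 MYC network genes tested, 1 rose and 2 fell, with a median of −0.14. These shares of 10% and 20% are near those of all genes (9.13% and 14.8%) and are no result about the list. The MAX-binding repressor genes Mxd3 (1.11), Mxd4 (−1.04) and Mnt (−0.42) moved in different directions, and the other 7 genes did not pass. Of 11 genes for degradation and phosphorylation of the G1 cyclins and MYC, 2 rose and 0 fell. That is 18.2% risen beside 9.13% of all genes tested, too few genes to say anything about the list. The 2 were Skp2 (0.82), whose product takes the p27 inhibitor to degradation, and Fbxw7 (0.53), whose product takes cyclin E and MYC to degradation. A second probe of Fbxw7 gave 0.28 and did not pass. The target of BIO itself did not pass at the RNA level, with 0.35 for Gsk3b (adjusted p = 0.0512) and −0.01 for Gsk3a. Other probes of Gsk3b gave 0.22 and 0.005 and did not pass.

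Genes that E2F and MYC factors are known to activate rose or did not pass, and 0 fell in either list. Of all genes tested, 9.13% rose and 14.8% fell. Of 22 E2F target genes of S phase, 19 rose and the median log2 ratio was 0.73, with the highest values in Pola1 (1.03), a DNA polymerase subunit gene, and Cdt1 (0.98), a replication licensing factor gene. Of 18 MYC target genes, 6 rose and the median was 0.29, with Shmt1 (1.16), Gnl3 (0.80) and Ppan (0.59) at the top. Myc and Mycn themselves fell on the same arrays. Of 14 genes of G2 and M phase, 14 rose, with a median of 1.08 and a range of 0.75 to 1.41. The median of the 10 G1 regulators, at −0.23, lay below the median of each of these 3 lists on both arrays. From the processed signals 12 of the E2F targets and 2 of the MYC targets rose. In that setting 797 of all 21574 genes tested rose, in place of 1970. From the authors' rounded values 5 and 3 rose, beside 1929 of all genes tested.

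**Figure D4:**
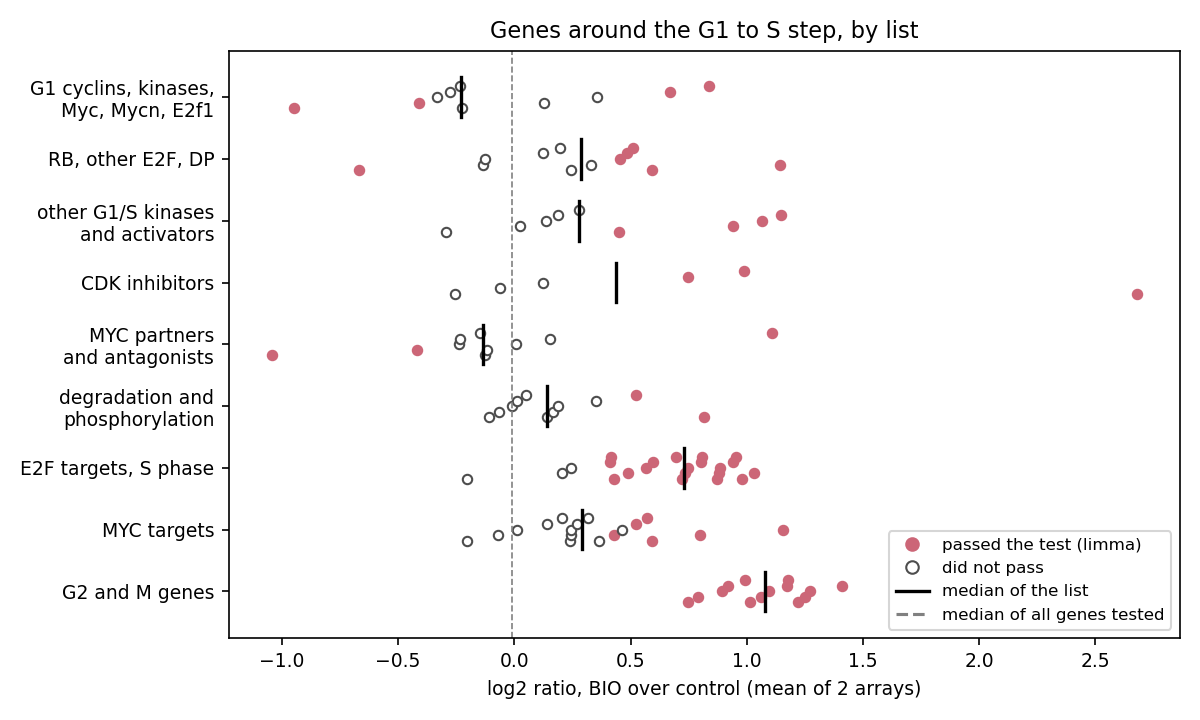
Mean log2 ratio of BIO over control for each gene of 9 lists around the G1 to S step, filled red where the adjusted p from limma was under 0.05, with the median of each list (black bar) and of all genes tested (dashed line at −0.01). The medians of the E2F targets (0.73) and the G2 and M genes (1.08) lie above 0, and that of the G1 cyclins, kinases, Myc, Mycn and E2f1 (−0.23) lies below it.

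Of 12 canonical WNT target genes other than Ccnd1 and Myc, 10 rose and 1 fell, with a median log2 ratio of 1.20. Of all genes tested, 9.13% rose. This list was chosen with earlier results of these data known, so it describes the response and is no independent check of the treatment. In both conditions 12 of 12 mesenchymal marker genes were above background, as were the epithelial ones except Upk1b. Upk1b was above background in control explants only. The endothelial, macrophage, erythroid and neural markers tested were also above background in both conditions, so this does not single out the tissue of the label. Markers of several cell types were lower with BIO on the same arrays, on which 14.8% of all genes tested fell. Of 8 endothelial markers 8 fell, with a median of −2.07, and their summed signal was 28598 and 34430 in control and 5317 and 9919 in BIO explants. Of the 12 mesenchymal markers 8 fell (median −0.64), of the 12 epithelial markers 8 fell (median −0.90), and of 8 macrophage, 8 erythroid and 7 neural markers 4, 4 and 3 fell. None of these lists had a gene that rose. The part of these changes in the lower values of Myc, Mycn and Rb1, or in the higher values of E2f1 and Ccne2, was not tested.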

How the data were processed

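Per the labels and file headers, total RNA was amplified to cRNA, labeled with AlexaFluor555 (green) or AlexaFluor647 (red) and hybridized to Agilent 2-color arrays, both on 1 slide. The authors quantified the scans with Agilent Feature Extraction 10.7.3.1. The deposited scanner tables hold mean spot and local background intensities without normalization, and processed signal intensities that the software had background-subtracted, detrended and dye-normalized. The authors also deposited a value table of scores to 1 decimal, a single value for each probe on an array. Set against the scanner values, the score tracks the fold change between BIO and control with a sign for its direction, and its exact centering is not given in the sources used here.

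Intensities were corrected by normexp with an offset of 50 and normalized within each array by loess in limma 3.58.1 (R 4.3.3). Control spots and outlier spots (3.49% and 3.16%) were left out, and 0 spots were saturated. Spots of a probe were averaged, the swapped array was turned, and probes well above background in one condition on both arrays were tested (28824). Ratios were tested two-sided against 0 by limma's moderated fit (lmFit, eBayes), and p-values were adjusted after Benjamini and Hochberg over all probes. The calculation had first been run on simulated ratios without dye effects. That checks the calculation and does not show how well the fit suits these arrays. A gene is represented by its brightest tested probe. The number of arrays, 2, limits the precision (median SE 0.11), and the arrays correlated at 0.80 over probes. Dyes were exchanged between the arrays, so dye and replicate cannot be told apart.

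The 10 genes and the lists around them were chosen with earlier results of these data known, so no test was made over a list. All of the 10 genes are named, with every probe. From each list the genes with the largest called changes are named, and all genes of the E2F, inhibitor and degradation lists could be. Alternatives were an offset of 16, the processed signals, median centering in place of loess, no filter on dim probes, the mean of all probes of a gene, the value table, leaving out each array, and for the rule on size 1.5-fold, an intensity minimum of 50 and no centering. The labels do not tie the pools to separate days or litters. The p-values and SEs measure a spread between these arrays that limma pools mostly over all probes (prior of 7.14 degrees of freedom). They reflect a gene's own spread only in part, and under median centering all 10 genes had the same SE, 0.216.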

Additional observations from a re-analysis of the deposited data

How the results depend on the processing

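The direction of every one of the 10 genes was the same in all settings run, and no value was reversed. Of 60 tested values of single genes under an alternative, 46 stayed on their side of the threshold, 5 passed it anew and 9 no longer passed. The number of genes that fell was 1 in place of 2 under median centering, without a filter on dim probes, with an offset of 16 and from the processed signals, Mycn being the gene lost. It was also 1 with the value table, where Myc and Mycn were both lost and Ccnd3 passed. The number that rose was 1 in place of 2 with median centering, where E2f1 was lost (adjusted p = 0.0735). With the mean of all probes of a gene 3 rose and 3 fell, Ccne1 (adjusted p = 0.0265) and Ccnd3 (0.0350) being added. In that setting 2238 of all 21574 genes tested rose and 3404 fell. With the value table Ccne2 and Myc did not pass (adjusted p = 0.126 for both), E2f1 did not either (0.162), and Ccnd3 (0.0342), Ccne1 (0.0342) and Cdk4 (0.0478) did. Its rounding to 1 decimal gives these 3 genes equal values on both arrays. Their SE there was 0.00537, against 0.093 for Myc, 0.11 for E2f1 and 0.12 for Ccne2. A pass or a loss with the value table therefore turns partly on such ties. The means of Myc (−0.96), E2f1 (0.72) and Ccne2 (1.29) were no smaller in size there than with loess and an offset of 50. The median log2 ratio of the 10 genes was −0.17 with the processed signals and −0.14 with median centering. It ranged from −0.24 to −0.16 when 1 array was left out, which gives values with no test. By the rule on size, 1 gene in place of 0 was higher with a 1.5-fold minimum (E2f1) and with an intensity minimum of 50 (Ccne2), and 1 in place of 0 was lower with a 1.5-fold minimum (Myc). Leaving out 1 array gave between 0 and 1 genes lower, the 1 being Myc without replicate 1. The shares of all genes under these changed rules were not computed, so the counts say nothing particular about the group.

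Over all genes, 797 rose and 1126 fell with the processed signals, 827 and 1939 with median centering, and 1929 and 1319 with the value table, against 1970 and 3184. With an offset of 16, 1694 rose and 2796 fell. Without a filter on dim probes 1789 rose and 2914 fell, of 29864 genes. Of the E2F targets 12 rose with the processed signals and 5 with the value table, in place of 19, and of the MYC targets 2 and 3 in place of 6. Of the other E2F, DP and retinoblastoma genes, between 1 and 3 rose in place of 5 with processed signals, median centering, no filter or the value table, and of the inhibitors 1 in place of 3 with the value table. Also with the rounded values, 8 of the G2 and M genes, 4 of the WNT targets, 2 of the endothelial, 2 of the mesenchymal and 0 of the epithelial markers passed in their direction, and with median centering 4 of the mesenchymal markers did. The macrophage, erythroid and neural marker calls fell to 1, 0 and 0 with the processed signals. Of values that passed in neither setting, Cdk4 had 0.41 and Ccnd2 −0.08 with median centering. The cause was not tested. Each array pairs a control with a BIO pool, so the test on ratios within arrays is the paired one, and no unpaired fit was run.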
